A study of Arabidopsis thaliana with 19 samples.

Results

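The comparison of seedlings at 6D with seedlings at 5D 8H covers the last 16 h of a time course of Arabidopsis thaliana root tips. Its 3 libraries of 6D and 3 libraries of 5D 8H are 6 of the 19 RNA-seq libraries of the series, and 18087 of the 33201 loci in the table entered it, those whose average over the 19 libraries reached 1 FPKM. The 2 libraries collected in between, at 5D 16H, were passed over in the contrast because 1 of them is shallow. They still entered the filter and the estimate of spread shared by all ages. The step from 4D 8H (2 libraries) to 5D (3 libraries), the same span of hours a day earlier, served as its counterpart.

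All groups shared the PET111:GFP reporter line and the growth conditions, and the labels set them apart by seedling age: 6 days at 6D, 5 days and 8 hours at 5D 8H, 5 days at 5D, and 4 days and 8 hours at 4D 8H, counted after stratification. Seedlings were grown on MS medium with sucrose in long days. PET111 drives GFP in the columella once it has differentiated. Protoplasts were made from root tips and sorted for cells without GFP, so the libraries hold the cells of the tip other than that tissue, which the study treats as mostly stem cells. The study's methods describe each replicate as a separate batch of seed and state that roots were harvested at 1 time of day for every age. How sowing was staggered to give ages 8 h apart is not given in the sources used here, and the labels and the methods name different seed sterilisation. The deposited values are FPKM, fragments scaled to the length of the transcript and to the mapped fragments of the library, a level per length.

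At the tip of the Arabidopsis root a few stem cells around the quiescent centre give rise to every tissue of the root. Their daughters first divide and then elongate, and the later cells switch on the genes of their tissue, such as the Casparian strip genes of the endodermis and the secondary wall genes of the xylem. Chaperones keep proteins folded in the cytosol and in the endoplasmic reticulum (ER), and plants raise the cytosolic set in heat and the genes of sugar starvation when carbohydrate is short.

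WOX5, the quiescent centre homeobox gene, had 4.81, 4.63 and 7.96 FPKM at 6D, against 1.597, 3.43 and 3.12 FPKM at 5D 8H. Genes of differentiated tissues were far higher in the same libraries, with 327, 281 and 343 FPKM of the Casparian strip gene CASP1 at 6D, against 706, 565 and 547 FPKM at 5D 8H. The libraries therefore held RNA of differentiated cells as well as of the niche. In such bulk samples fewer cells of a type and less RNA per cell cannot be told apart, which applies to every tissue gene described here.

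The steps between low values gave an estimated depth of 13.5 to 16.3 M mapped reads at 6D, against 15.4 to 19.4 M at 5D 8H, and 10.5 to 38.8 M over all libraries except 5D 16H replicate 2, which had about 1.22 M. With FPKM alone no interval for counting error can be given. 6D replicate 3 stood apart from the other libraries of its age. It was the lowest of the 3 libraries of 6D at 54.7% of all loci tested, at all 14 xylem genes, all 13 histone H3.1 and H4 genes and all 20 nucleolar ribosome assembly genes, whose summed level was 285 FPKM there, against 551 and 573 FPKM in 6D replicates 1 and 2. Without it, 44 of the 120 calls of genes named here did not pass. Outside the gene lists these were AT1G07400, AT1G03660 and AT2G37870.

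At 6D, 2476 of the 18087 loci (13.7%) differed from 5D 8H at an adjusted p under 0.05 (limma, Benjamini-Hochberg). The loci that fell outnumbered those that rose, with 1829 lower (10.1%) and 647 higher (3.58%). Changes over 2-fold were found at 501 loci (2.77%), of which 400 fell and 101 rose. The 3 libraries of each age did not overlap at 6180 loci (34.2%), higher at 6D at 12.3% and lower at 21.9%. The median log2 fold change of all loci was -0.04. Higher loci made up 26.1% of the calls, and 39.8% (1002 of 2520) after quantile normalization. The count of calls rested on single libraries, since it was 1145 without 5D 8H replicate 1, 1441 without 5D 8H replicate 3 and 1633 without 6D replicate 3.

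**Figure D1:**
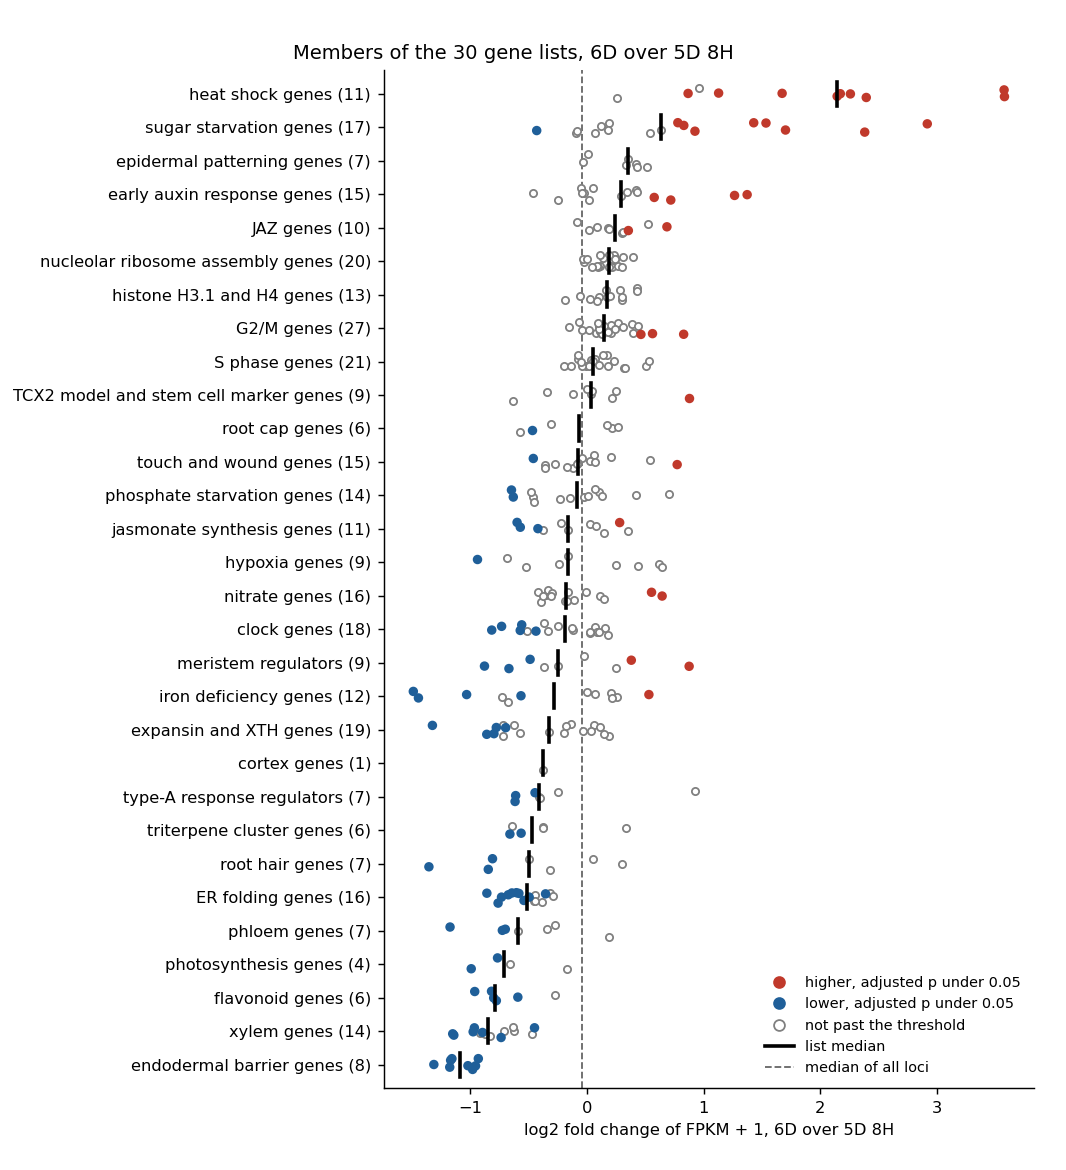
Log2 fold change of FPKM + 1 at 6D over 5D 8H for each tested member of the 30 gene lists, with the number of tested members in brackets. Filled points passed an adjusted p of 0.05, black bars are list medians and the dashed line is the median of all 18087 loci (-0.04). Heat shock genes lie furthest right (median 2.14) and endodermal barrier genes furthest left (median -1.09).

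The rises largest in size were in cytosolic chaperones. Of the 11 heat shock genes tested, 9 rose, none fell and all 11 had a positive sign, with a median log2 fold change of 2.14, beside 3.58% of all loci called higher and a median of -0.04. Their summed level was 567 to 767 FPKM at 6D, against 128 to 257 FPKM at 5D 8H. Between 7 and 10 members passed under the 30 alternative settings, leave-one-out fits included.

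Among the class II small heat shock proteins, which bind unfolding proteins, HSP17.6A had 86.1, 50.3 and 74.7 FPKM at 6D, against 2.52, 8.62 and 4.88 FPKM at 5D 8H (log2 fold change 3.58 ± 0.57 SE, adjusted p = 0.0013). Its neighbour HSP17.6II had 90.03, 59.3 and 86.8 FPKM at 6D, against 3.09, 11.7 and 4.52 FPKM at 5D 8H (3.57 ± 0.59, adjusted p = 0.0014). Every library of 6D exceeded every library of 5D 8H at both genes, and 5D 8H replicate 2 was the highest of its age. That library was the highest of 5D 8H at 9 of the 11 genes. HSP17.6A and HSP17.6II lie next to each other on the minus strand of chromosome 5 (TAIR10.1, 3883957 to 3884838 and 3882231 to 3883111), and how reads shared by such related genes were divided is not given in the sources used here.

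The class I small heat shock genes followed. HSP17.4 had 80.4, 60.2 and 80.2 FPKM at 6D, against 9.86, 18.9 and 11.9 FPKM at 5D 8H (2.39 ± 0.40, adjusted p = 0.0015). HSP17.6B had 138, 88.1 and 118 FPKM at 6D, against 16.1, 35.3 and 20.8 FPKM at 5D 8H (2.26 ± 0.42, adjusted p = 0.0026). HSP18.2, of the same class, averaged 6.87 ± 1.14 FPKM at 6D and 5.81 ± 2.34 FPKM at 5D 8H (SD) and did not pass (adjusted p = 0.53).

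Larger chaperones rose too. HSP101, which pulls proteins out of aggregates, had 79.5, 70.4 and 94.2 FPKM at 6D, against 11.4, 28.1 and 15.6 FPKM at 5D 8H (2.17 ± 0.40, adjusted p = 0.0026). HSP90.1, the heat-inducible cytosolic HSP90, had 53.1, 41.5 and 49.9 FPKM at 6D, against 6.23, 14.8 and 10.8 FPKM at 5D 8H (2.14 ± 0.44, adjusted p = 0.005). HSP70-4 rose by 1.13 ± 0.32 (adjusted p = 0.027) and the HSP90 partner ROF2 by 0.87 ± 0.28 (adjusted p = 0.047) on the log2 scale, and neither passed without 6D replicate 3. ROF2 kept its call in 14 of the 30 alternatives. HSFA2, a heat shock transcription factor, had 29.0, 25.0 and 28.3 FPKM at 6D, against 6.29, 12.1 and 6.45 FPKM at 5D 8H (1.67 ± 0.33, adjusted p = 0.004). The peroxisomal HSP15.7 averaged 2.48 ± 0.97 FPKM at 6D and 0.80 ± 0.53 FPKM at 5D 8H (SD), with an adjusted p of 0.092.

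The other 3 genes of the list, all for organelle proteins, had means under 1 FPKM and were not tested. HSP22.0 had 2.95, 2.05 and 1.58 FPKM at 6D, against 0, 0.173 and 0.147 FPKM at 5D 8H. HSP23.6 reached 2.02 FPKM and HSP21 reached 0.666 FPKM in their highest library of 6D.

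A further 4 small chaperones of the HSP20-like family, outside the list, were among the 10 largest rises: AT1G53540 (2.88), AT1G07400 (2.72), AT1G52560 (2.39) and AT1G54050 (2.30). Of the family's 23 loci tested 7 rose, 2 fell and 14 were not called, beside 3.58% of all loci called higher and 10.1% lower. The rise was not shared by the whole family, since 10 had a negative sign. The median was 0.22, against -0.04 over all loci. AT1G54050 had 32.9, 12.4 and 9.75 FPKM at 6D, against 1.62, 3.53 and 2.42 FPKM at 5D 8H, so that its rise was uneven among the libraries of 6D.

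The 250 bases before the annotated gene start are shown for HSP17.6A, which had the largest rise, and for HSP17.4 and HSFA2. Among the heat shock genes tested, only the last 2 held a match to the form of the heat shock element searched. Heat shock factors are known to bind this element. This motif was searched on both strands as GAA, any 2 bases, TTC, any 2 bases and GAA. Its mirror image on the other strand is TTC, any 2 bases, GAA, any 2 bases and TTC. Sequences are from the RefSeq TAIR10.1 genome, written 5′ to 3′ toward the gene with matches in capitals, at chr5:3884839-3885088 (minus strand), chr3:16984868-16985117 (minus strand) and chr2:11135374-11135623 (plus strand).
HSP17.6A: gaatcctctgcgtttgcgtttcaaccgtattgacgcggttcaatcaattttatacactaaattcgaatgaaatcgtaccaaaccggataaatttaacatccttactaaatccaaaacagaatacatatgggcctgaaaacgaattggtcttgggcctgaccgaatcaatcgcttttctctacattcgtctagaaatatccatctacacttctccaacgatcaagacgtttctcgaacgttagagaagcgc
HSP17.4: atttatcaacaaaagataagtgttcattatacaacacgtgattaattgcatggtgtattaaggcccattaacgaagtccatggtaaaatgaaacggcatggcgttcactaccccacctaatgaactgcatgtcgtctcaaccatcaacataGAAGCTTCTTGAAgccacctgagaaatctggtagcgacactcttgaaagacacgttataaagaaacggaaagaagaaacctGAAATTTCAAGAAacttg
HSFA2: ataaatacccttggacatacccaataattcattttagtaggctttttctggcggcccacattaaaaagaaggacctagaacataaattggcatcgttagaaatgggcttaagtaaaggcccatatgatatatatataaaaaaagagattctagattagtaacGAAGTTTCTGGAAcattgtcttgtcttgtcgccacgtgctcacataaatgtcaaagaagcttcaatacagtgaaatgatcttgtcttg

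HSP17.4 held 2 matches and HSFA2 held 1, while none of the other 9 heat shock genes tested had these letters in the window. The motif was present in 2 of 11 windows of the list and in 74 of the 17833 windows of all loci tested (0.415%). HSP17.6A, with the largest rise, had no match in its window. Other spellings and more distant bases were not searched and the annotated starts were not checked. Genes without a match may therefore hold the element.

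Many genes of sugar starvation rose. Of 17 tested (of 20 listed), 8 rose and 1 fell, with a median log2 fold change of 0.63, beside 3.58% of all loci called higher and 10.1% called lower. Their summed level was 2975 to 3824 FPKM at 6D, against 1662 to 1925 FPKM at 5D 8H. Without 5D 8H replicate 1 the number that rose was 4, and without 5D 8H replicate 3 or 6D replicate 3 it was 5.

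DIN6, which encodes the asparagine synthetase ASN1, had 138, 157 and 255 FPKM at 6D, against 17.1, 32.3 and 20.9 FPKM at 5D 8H (2.92 ± 0.44, adjusted p = 0.00086). The beta-glucosidase gene DIN2 had 9.46, 13.3 and 28.7 FPKM at 6D, against 1.0998, 3.93 and 2.04 FPKM at 5D 8H (2.38 ± 0.61, adjusted p = 0.016). At both genes 6D replicate 3 was the highest library and the ages did not overlap. SEN5 had 703, 662 and 823 FPKM at 6D, against 174, 262 and 241 FPKM at 5D 8H (1.70 ± 0.40, adjusted p = 0.01). PRODH1, proline dehydrogenase, had 564, 510.1 and 697 FPKM at 6D, against 192, 243 and 218 FPKM at 5D 8H (1.43 ± 0.26, adjusted p = 0.0023). These abundant transcripts rose in every library of 6D.

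Smaller rises were found for SEN1 (1.53 ± 0.46, adjusted p = 0.035), the transcription factor BZIP63, a target of the energy sensor kinase SnRK1 (0.93 ± 0.17, adjusted p = 0.0029), the raffinose synthase family gene DIN10 (0.83 ± 0.22, adjusted p = 0.019) and the glutamate dehydrogenase GDH2 (0.78 ± 0.16, adjusted p = 0.004). GDH2 was the most abundant of them, with 999, 915 and 1186 FPKM at 6D, against 562, 630.0 and 605 FPKM at 5D 8H. The member that fell was EXL2, an EXORDIUM-like gene, with 274, 208 and 221 FPKM at 6D, against 302, 317 and 322 FPKM at 5D 8H (-0.43 ± 0.12, adjusted p = 0.024). Outside the list, MIOX4, a myo-inositol oxygenase, had 5.96, 6.64 and 10.2 FPKM at 6D, against 0.297, 0.482 and 0.682 FPKM at 5D 8H (2.51 ± 0.37, adjusted p = 0.00083).

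**Figure D2:**
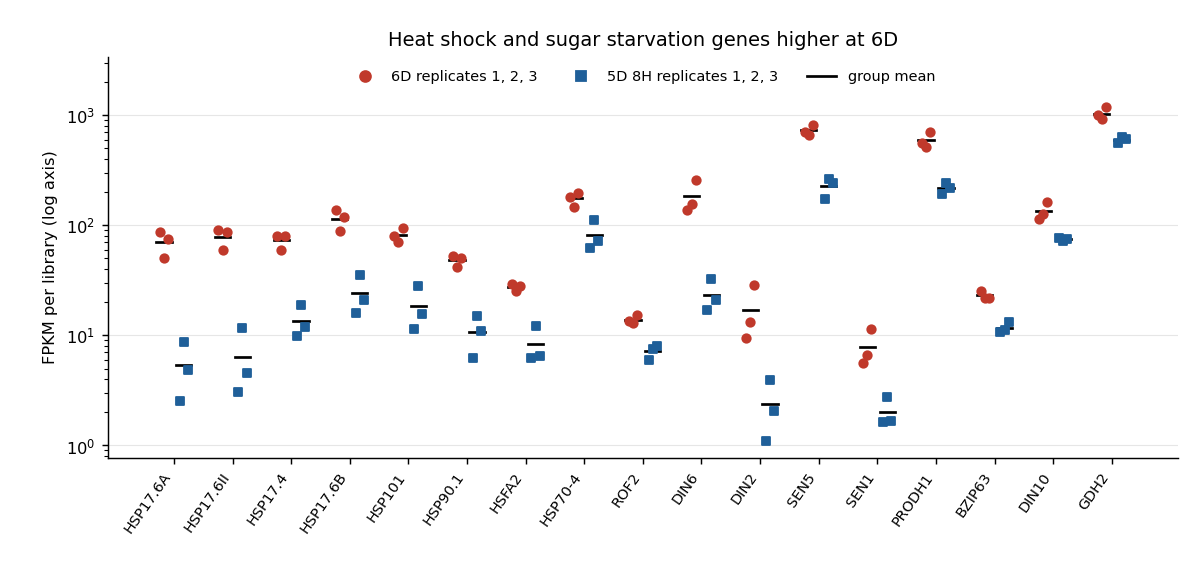
FPKM (log axis) of the heat shock and sugar starvation genes that rose, in each library of 6D (circles) and 5D 8H (squares), with group means as bars. No square reaches the circles of its gene; HSP17.6A lies at 50.3 to 86.1 FPKM at 6D, against 2.52 to 8.62 FPKM at 5D 8H.

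Transcripts of the 2 groups had also been high in some libraries of 4D, the youngest age. HSP17.6A had 3.70, 25.3 and 33.1 FPKM and DIN6 had 20.24, 42.9 and 126 FPKM in 4D replicates 1, 2 and 3. The summed level of the heat shock list was 161, 575 and 376 FPKM in these libraries, so that 1 of them fell within the range of 6D.

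The barrier genes of the endodermis fell. All 8 tested were lower at 6D (median -1.09), beside 10.1% of all loci called lower. The groups did not overlap at any of the 8, beside 21.9% of all loci that did not overlap and were lower. Their summed level was 902 to 1109 FPKM at 6D, against 1945 to 2511 FPKM at 5D 8H. In 4D replicates 1, 2 and 3 it was 1825, 2492 and 959 FPKM, so that 4D replicate 3 fell within the range of 6D. Without 5D 8H replicate 1, the highest library of its age at all 8 genes, 4 passed, and without 6D replicate 2, the lowest of its age at all 8, also 4 passed. The median kept between -1.18 and -0.95 under the 30 alternatives.

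The CASP proteins are the membrane scaffold of the Casparian strip, the ring of lignin that seals the endodermal wall. CASP1, given above, fell by 0.93 ± 0.25 (adjusted p = 0.02). The changes of CASP2, CASP4 and CASP5 ranged from -1.17 to -0.98. CASP4 had 89.6, 77.3 and 93.7 FPKM at 6D, against 240.2, 172 and 183 FPKM at 5D 8H (-1.17 ± 0.29, adjusted p = 0.014). ESB1, the dirigent-like protein of the strip, had 165, 155 and 183 FPKM at 6D, against 492, 389.8 and 376 FPKM at 5D 8H (-1.31 ± 0.26, adjusted p = 0.0043). The strip's peroxidase PER64 had 134, 119.5 and 147 FPKM at 6D, against 357, 269 and 281 FPKM at 5D 8H (-1.17 ± 0.26, adjusted p = 0.0078).

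The receptor kinase SGN3, which monitors the barrier, had 13.5, 13.4 and 15.3 FPKM at 6D, against 42.3, 28.7 and 28.2 FPKM at 5D 8H (-1.15 ± 0.21, adjusted p = 0.0021). MYB36, the transcription factor that turns on the CASP genes, had 59.7, 52.2 and 55.9 FPKM at 6D, against 125, 98.2 and 106 FPKM at 5D 8H (-0.95 ± 0.11, adjusted p = 0.00031). The upstream regulators of the ground tissue fell too: SHR (-0.88 ± 0.20, adjusted p = 0.0087), SCR (-0.67 ± 0.15, adjusted p = 0.0081) and JKD (-0.49 ± 0.12, adjusted p = 0.013). JKD was even within each age, with 6.17, 6.03 and 6.28 FPKM at 6D, against 9.13, 9.05 and 8.88 FPKM at 5D 8H. Without 5D 8H replicate 1, 1 of these 3 regulators passed.

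Genes of the vascular tissues were also lower. All 14 xylem genes tested had a negative sign and groups that did not overlap, with a median of -0.85, and 7 passed, beside 21.9% of all loci that did not overlap and were lower and 10.1% called lower. All 14 were lowest in 6D replicate 3. Leaving out that library, 1 passed and the median was -0.57. The number was also 1 when 5D 8H replicate 3 was left out, 3 without 5D 8H replicate 2, 4 without 5D 8H replicate 1, 13 without 4D 16H replicate 3 and 11 in the fit that left out 6D replicate 1.

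The cellulose synthases of the secondary wall fell together. CESA7 had 17.7, 15.3 and 8.85 FPKM at 6D, against 32.6, 29.4 and 30.4 FPKM at 5D 8H (-1.14 ± 0.26, adjusted p = 0.0082). CESA8 had 14.01, 11.6 and 5.83 FPKM at 6D, against 22.5, 24.2 and 22.7 FPKM at 5D 8H (-1.15 ± 0.30, adjusted p = 0.018), and CESA4 fell by 0.96 ± 0.27 (adjusted p = 0.027). The xylem regulators VND7 (-0.73), MYB46 (-0.89), ATHB8 (-0.97) and LHW (-0.45) fell as well, though MYB46 kept its call in 14 of the 30 alternatives. The proteases and laccases XCP1, XCP2, LAC4 and LAC17 lay between -0.91 and -0.71 and did not pass.

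In the phloem list 3 of 7 tested genes fell, beside 10.1% of all loci called lower, and 2 or 3 fell under the 30 alternatives. SUC2, the sucrose loader of companion cells, had 12.8, 13.8 and 11.1 FPKM at 6D, against 24.8, 33.5 and 30.9 FPKM at 5D 8H (-1.17 ± 0.27, adjusted p = 0.0098). OPS (-0.72 ± 0.16, adjusted p = 0.0066) and the phloem identity factor APL (-0.70 ± 0.22, adjusted p = 0.042) were the others. The call of APL was kept in 14 of the 29 alternatives that gave it a value.

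In the root hair list 3 of 7 fell, all for wall proteins, beside 10.1% of all loci called lower. They were PRP3 (-1.35 ± 0.28, adjusted p = 0.0055), LRX1 (-0.84 ± 0.26, adjusted p = 0.039) and the expansin EXPA18 (-0.81 ± 0.20, adjusted p = 0.015). PRP3 had 268, 233 and 202 FPKM at 6D, against 668, 436 and 727 FPKM at 5D 8H. The regulators RHD6 (0.30) and RSL4 (0.05) did not pass, and 1 member passed without 5D 8H replicate 1, 5D 8H replicate 3 or 6D replicate 3. None of the 7 epidermal patterning genes passed. In the root cap list BRN1 alone of 6 did (-0.47 ± 0.13, adjusted p = 0.026), a share of 16.7%, near the 13.7% of all loci called. The call of BRN1 was lost without 5D 8H replicate 1, 6D replicate 2 or 6D replicate 3. The part of differing cell makeup in these results was not tested.

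**Figure D3:**
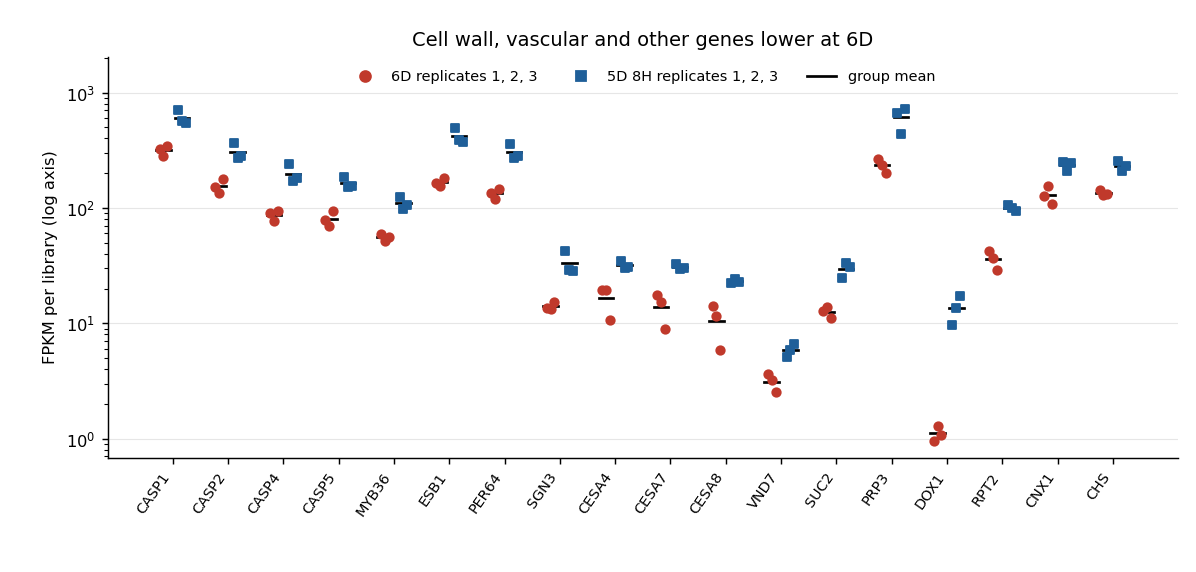
FPKM (log axis) of 18 genes that were lower at 6D, in each library of 6D (circles) and 5D 8H (squares), with group means as bars. At all 8 endodermal genes, CASP1 to SGN3, the highest square is 5D 8H replicate 1 and the lowest circle is 6D replicate 2. CESA4, CESA7 and CESA8 have 1 low circle, 6D replicate 3, at 5.83 to 10.7 FPKM.

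Genes of the ER folding list moved opposite to the cytosolic chaperones that rose. Of the 16 ER folding genes tested, 10 fell and none rose, all 16 had a negative sign, and the median was -0.52, beside 10.1% of all loci called lower. Their summed level was 1477 to 1916 FPKM at 6D, against 2304 to 2543 FPKM at 5D 8H. The number that fell was 3 without 5D 8H replicate 1, without 5D 8H replicate 3 or without 6D replicate 3.

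The membrane lectin chaperone CNX1 had 126, 155 and 109 FPKM at 6D, against 248, 209 and 244 FPKM at 5D 8H (-0.86 ± 0.20, adjusted p = 0.011). BIP3, the HSP70 of the ER that is induced by stress, had 7.17, 7.94 and 6.91 FPKM at 6D, against 11.7, 13.3 and 14.4 FPKM at 5D 8H (-0.76 ± 0.13, adjusted p = 0.0019). The disulfide isomerase PDIL1-2 fell by 0.73 ± 0.19 (adjusted p = 0.018) and SHD, the HSP90 of the ER, by 0.67 ± 0.17 (adjusted p = 0.016). BIP2 averaged 215 ± 37.4 FPKM at 6D and 292 ± 16.4 FPKM at 5D 8H (SD), with an adjusted p of 0.12.

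The windows of SHD and PDIL1-2 are shown because they alone among the ER genes held the ER stress response element, searched on both strands as CCAAT, any 9 bases and CCACG. They lie at chr4:12556059-12556308 (minus strand) and chr1:29126398-29126647 (plus strand) of RefSeq TAIR10.1, with the match in capitals.
SHD: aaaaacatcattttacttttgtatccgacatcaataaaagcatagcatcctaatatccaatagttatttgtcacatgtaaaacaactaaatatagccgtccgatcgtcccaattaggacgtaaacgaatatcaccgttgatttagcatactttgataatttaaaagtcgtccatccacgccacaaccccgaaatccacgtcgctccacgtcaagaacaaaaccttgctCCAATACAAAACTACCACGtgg
PDIL1-2: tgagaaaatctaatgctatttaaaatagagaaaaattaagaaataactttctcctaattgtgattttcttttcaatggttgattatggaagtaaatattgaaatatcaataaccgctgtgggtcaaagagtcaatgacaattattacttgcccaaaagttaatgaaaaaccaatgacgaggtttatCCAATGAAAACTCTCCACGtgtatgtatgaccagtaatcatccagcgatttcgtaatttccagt

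This motif was in 2 of 16 windows of the ER list and in 67 of 17833 windows of all loci tested (0.376%). The match begins 22 bases before the gene start in SHD and 64 bases before it in PDIL1-2.

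Flavonoid synthesis genes fell. Of 6 tested (of 8 listed), 5 were lower (median -0.79), beside 10.1% of all loci called lower, and at least 4 passed under every alternative. The summed level of the list was 233 to 275 FPKM at 6D, against 396 to 480.9 FPKM at 5D 8H. Chalcone synthase, CHS, had 142, 130.2 and 131 FPKM at 6D, against 253, 209.7 and 231 FPKM at 5D 8H (-0.77 ± 0.15, adjusted p = 0.0039). CHI (-0.96), F3H (-0.82), FLS1 (-0.59) and their activator MYB12 (-0.80) fell as well.

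Among called loci whose libraries did not overlap, with at least 5 FPKM at the higher age and a transcript of at least 300 nucleotides, the falls largest in size were in genes of other kinds. DOX1, an alpha-dioxygenase of the peroxidase superfamily that oxidises fatty acids, had the smallest p of all loci, with 0.954, 1.297 and 1.08 FPKM at 6D, against 9.65, 13.6 and 17.37 FPKM at 5D 8H (-2.75 ± 0.26, adjusted p = 0.00019). The neighbouring kinase genes AT1G51830 and AT1G51840 on chromosome 1 fell by 2.27 ± 0.28 and 2.02 ± 0.32 on the log2 scale. AT1G51830 had 2.37, 2.23 and 1.92 FPKM at 6D, against 17.5, 12.2 and 13.7 FPKM at 5D 8H.

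ELIP1, an early light-induced chlorophyll-binding protein, had 19.1, 13.98 and 11.3 FPKM at 6D, against 76.5, 55.3 and 59.1 FPKM at 5D 8H (-2.05 ± 0.31, adjusted p = 0.00092). RPT2, a phototropism gene, had 42.1, 36.5 and 28.8 FPKM at 6D, against 106, 99.97 and 94.4 FPKM at 5D 8H (-1.48 ± 0.16, adjusted p = 0.00028). Both genes answer to light in seedlings. CAB1 and RCA, of photosynthesis, fell by 0.99 ± 0.25 and 0.76 ± 0.18 from levels under 6 FPKM. They were 2 of the 4 photosynthesis genes tested, beside 10.1% of all loci called lower. LHCA1 (-0.66, adjusted p = 0.32) and LHCB4.1 (-0.17, adjusted p = 0.66) did not pass, and the remaining 9 of the 13 photosynthesis genes had means under 1 FPKM. Without 5D 8H replicate 3 none of the list passed.

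The peroxidase genes AT2G18150 (-1.89 ± 0.33, adjusted p = 0.0019) and AT4G11290 (-1.20 ± 0.12, adjusted p = 0.00025) were among the loci named by size or by p. AT4G11290 was abundant, with 142, 138 and 107 FPKM at 6D, against 313, 278 and 293 FPKM at 5D 8H. The copper transporter gene COPT2 fell to 1.84, 0.616 and 1.02 FPKM at 6D, against 6.53, 5.68 and 9.78 FPKM at 5D 8H. The remaining falls among the 10 largest were AT4G00130 (-2.02), AT1G03660 (-1.97), AT3G56290 (-1.96) and the lipid transfer protein gene AT2G37870 (-1.90), and AT5G17760 (-1.34 ± 0.14) completed the 5 smallest p-values.

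Of 9 meristem regulators tested, 5 were called, WOX5 and PLT3 higher and SHR, SCR and JKD lower as given above, beside 13.7% of all loci. TCX2, a CXC-domain regulator of stem cell division, had 3.41, 2.36 and 1.90 FPKM at 6D, against 2.34, 2.23 and 2.98 FPKM at 5D 8H (0.00 ± 0.19). CRF2 (-0.12), AT2G47680 (0.04), AGL42 (0.25), FLP (0.04), FEZ (0.22), TMO5 (-0.63) and CVP2 (-0.34) did not pass either. The call of WOX5, which rose by 0.88 ± 0.27 (adjusted p = 0.044), was kept in 14 of the 30 alternatives. WOX5 had 6.19, 7.22 and 9.06 FPKM at 5D and 8.87 and 8.96 FPKM at 5D 16H. PLT3 had 39.7, 31.1 and 29.1 FPKM at 6D, against 24.1, 25.0 and 26.3 FPKM at 5D 8H (0.38 ± 0.11, adjusted p = 0.024), while PLT1 (-0.24) and PLT2 (-0.03) did not pass.

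Cell cycle genes gave few calls. Of 27 genes of the G2 and M phases 3 were called (11.1%), all higher, beside 13.7% of all loci called and 3.58% called higher. They were PANS1, which protects cohesion (0.83 ± 0.20, adjusted p = 0.011), the anaphase activator CDC20.1 (0.56 ± 0.16, adjusted p = 0.03) and CYCB2;3 (0.46 ± 0.13, adjusted p = 0.025). The sign was positive at 24 of the 27, and none passed without 5D 8H replicate 1. None of 21 S phase genes, 13 histone genes or 20 nucleolar genes passed. Without 6D replicate 3, the lowest library of 6D at 19, 13 and 20 of these, 2, 2 and 9 passed, all higher at 6D.

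Some hormone genes changed in each direction. Of 15 early auxin genes 4 rose, beside 3.58% of all loci called higher: the Aux/IAA repressor genes IAA5 (1.37 ± 0.35), IAA30 (1.27 ± 0.28) and IAA2 (0.58 ± 0.18), and the GH3 family gene GH3.1 (0.72 ± 0.17). IAA30 had 31.6, 44.5 and 45.7 FPKM at 6D, against 18.198, 16.9 and 13.5 FPKM at 5D 8H (adjusted p = 0.0078). The early auxin count was 2 without 5D 8H replicate 2, 5D 8H replicate 3, 6D replicate 2 or 6D replicate 3. The call of IAA2 was kept in 14 of the 30 alternatives. Of 7 type-A response regulators, the early targets of cytokinin, ARR3 (-0.61), ARR4 (-0.44) and ARR6 (-0.61) fell, and 1 passed without 5D 8H replicate 1, 6D replicate 2 or 6D replicate 3. ARR7, the 1 member with a positive sign, did not pass (0.92, adjusted p = 0.22). In jasmonate synthesis AOS (-0.60), LOX4 (-0.57) and JAR1 (-0.42) fell and LOX6 (0.28) rose, whereas the repressors JAZ3 (0.69) and JAZ2 (0.36) rose among 10 JAZ genes. The called shares of the type-A, jasmonate synthesis and JAZ lists were 42.9%, 36.4% and 20%, beside 13.7% of all loci. JAR1 kept its call in 16 and LOX6 in 17 of the 30 alternatives, none of them a fit without a library of 5D 8H or 6D. The jasmonate falls numbered 1 when 5D 8H replicate 1, 6D replicate 2 or 6D replicate 3 was left out, and JAZ2 kept its call in 10 of the 30 alternatives, none of them a fit without a library of 5D 8H or 6D. In the touch and wound list CML38 rose (0.77) and WRKY18 fell (-0.46) among 15, a share near the 13.7% of all loci, and WRKY18 did not pass without 5D 8H replicate 1, 5D 8H replicate 3, 6D replicate 2 or 6D replicate 3.

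Several genes of iron transport fell. OPT3 had 1.88, 1.69 and 1.05 FPKM at 6D, against 6.68, 5.85 and 5.63 FPKM at 5D 8H (-1.49 ± 0.32, adjusted p = 0.0058). FRD3, the citrate exporter of the stele, had 1.67, 1.14 and 1.18 FPKM at 6D, against 4.08, 5.48 and 6.601 FPKM at 5D 8H (-1.44 ± 0.23, adjusted p = 0.0014). The uptake transporter IRT1 (-1.03) and ZIF1 (-0.56) fell and the regulator FIT rose (0.53). This makes 4 lower and 1 higher of 12 tested (41.7% called, beside 13.7% of all loci), with 6 of each sign. Neither FIT nor ZIF1 passed without 5D 8H replicate 2, 5D 8H replicate 3, 6D replicate 2 or 6D replicate 3, nor ZIF1 without 5D 8H replicate 1. NRT3.1, a partner of high-affinity nitrate transporters (0.55), and BT2 (0.65) rose among 16 nitrate genes, and the call of BT2 was lost without 6D replicate 1, 6D replicate 3 or any library of 5D 8H. The phosphate transporter gene PHT1;1 (-0.64) and the galactolipid synthase gene MGD3 (-0.63) fell among 14 phosphate genes, where none passed without 5D 8H replicate 1 or 6D replicate 1, and the sucrose synthase gene SUS4 (-0.94) fell among 9 hypoxia genes. The called shares of the nitrate, phosphate and hypoxia lists (12.5%, 14.3% and 11.1%) were near the 13.7% of all loci.

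Among 19 wall-loosening expansin and XTH genes, XTH31 (-1.32), XTH15 (-0.86), XTH16 (-0.79), XTH17 (-0.77) and XTH21 (-0.69) fell, and 3 of the list passed without 5D 8H replicate 1. Of 18 clock genes RVE8 (-0.81), PRR9 (-0.73), GI (-0.57), ELF4 (-0.56) and LUX (-0.44) fell, of which 2 passed when 5D 8H replicate 1 or 6D replicate 3 was left out and 3 without 5D 8H replicate 3. The thalianol pathway genes THAH (-0.66) and THAD (-0.56) fell among 6 triterpene cluster genes, and the 1 cortex gene tested did not pass. The called shares of the expansin and XTH, clock and triterpene lists were 26.3%, 27.8% and 33.3%, beside 13.7% of all loci.

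At 5D 16H, in between, the mean lay between the means of the 2 ages at 1781 of the 2476 called loci (71.9%). The value of 5D 16H replicate 1 alone did so at 1775 (71.7%). These loci were picked by the gap between the ages, and the share over all loci is not given here. HSP17.6A had 12.2 and 17.2 FPKM and DIN6 had 43.7 and 45.03 FPKM in 5D 16H replicates 1 and 2. The ER genes did not lie between, since their summed level at 5D 16H was 3368 and 2604 FPKM, above every library of 6D and of 5D 8H. BIP3 had 28.3 and 23.1 FPKM there. The flavonoid sum was 552 and 557 FPKM at 5D 16H, also above both ages.

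**Figure D4:**
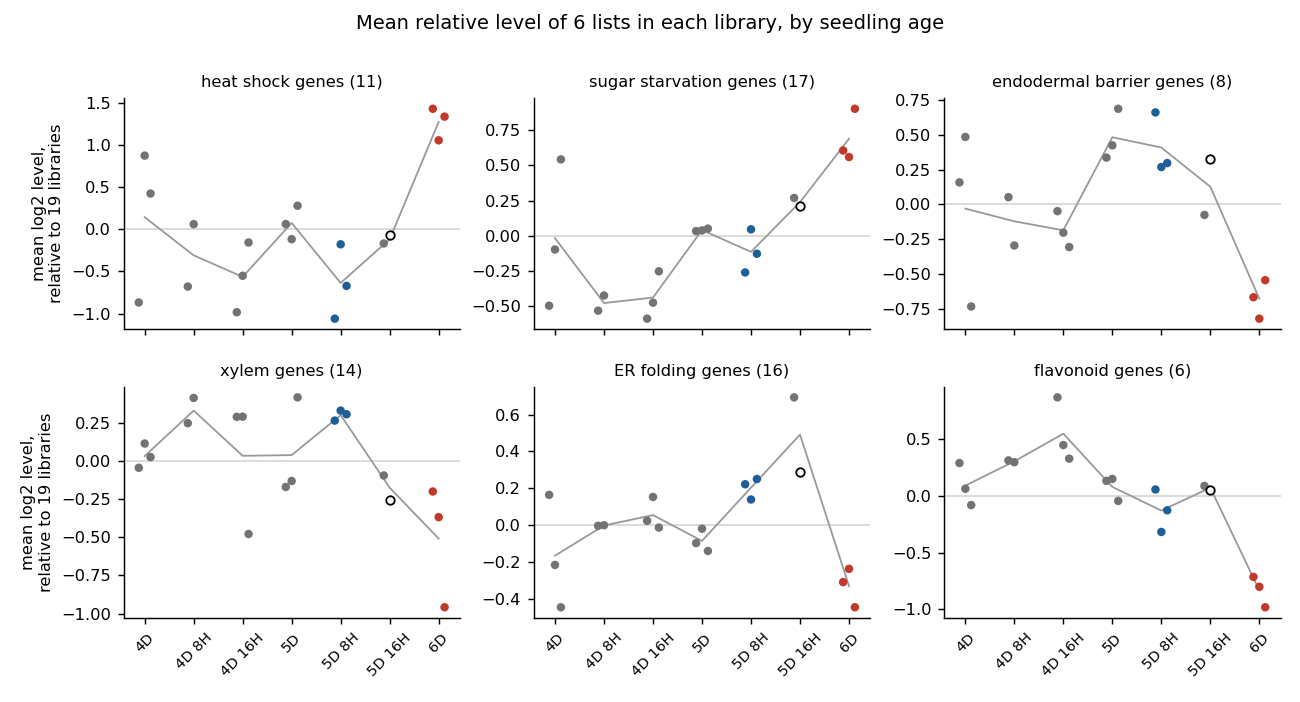
Mean log2 level of 6 lists in each library, relative to the mean of all 19 libraries, by age from 4D to 6D. Red points are 6D, blue points 5D 8H, grey points the other ages, the open point is the shallow 5D 16H replicate 2 and the line joins the group means. Heat shock genes lie at 1.05 to 1.43 at 6D, against -1.06 to -0.18 at 5D 8H, and endodermal barrier genes at -0.82 to -0.54 at 6D, against 0.27 to 0.66 at 5D 8H.

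Over the same span a day earlier, 252 loci (1.39%) differed at 5D from 4D 8H, 120 higher (0.663%) and 132 lower (0.73%). This count was 5 or 1 with 4D 8H replicate 1 or 2 left out, 1005 without 6D replicate 3 and 3513 with library weights, where 6D against 5D 8H gave 3763. Both spans called 87 loci, of which 62 had the same sign. The difference between the 16 h span ending at 6D and that ending at 5D passed at 744 loci (4.11%), 175 positive and 569 negative, of which 549 were also called at 6D against 5D 8H. Leaving out 4D 8H replicate 1 gave 275 loci, and leaving out 4D 8H replicate 2 gave 38. The mostly negative balance rested on 6D replicate 3, without which 774 were positive and 684 negative, and with library weights 1595 were positive and 1678 negative.

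All 8 endodermal barrier genes passed the test of the difference. Their median was -1.09 over the span ending at 6D and 0.64 over that ending at 5D, where none passed. ESB1 had 439, 536 and 619 FPKM at 5D, against 304 and 233 FPKM at 4D 8H, and the difference between the spans was -2.29 ± 0.40 (adjusted p = 0.0069). In the heat shock list 2 of 11 genes differed between the spans, HSP17.6A (3.56 ± 0.86, adjusted p = 0.031) and HSP17.4 (2.67 ± 0.60, adjusted p = 0.023), and in the sugar starvation list 1 of 17 did. No xylem or flavonoid gene differed between the spans. BIP3 had 15.2, 15.3 and 13.2 FPKM at 5D, against 7.24 and 7.22 FPKM at 4D 8H, and its difference was -1.68 ± 0.20 (adjusted p = 0.002).

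**Figure D5:**
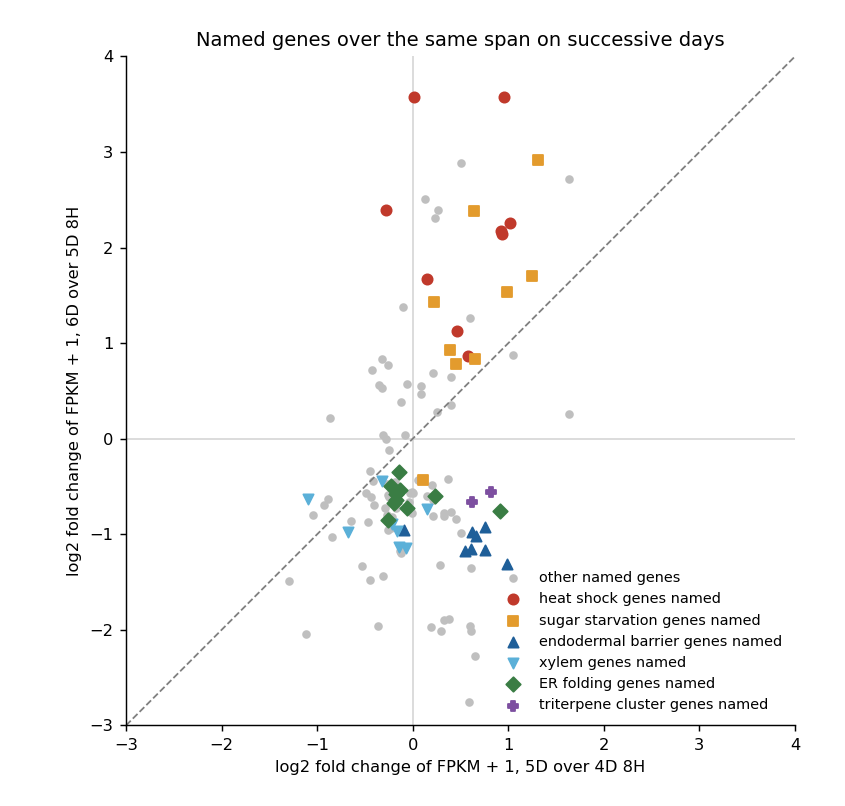
Log2 fold change of FPKM + 1 at 6D over 5D 8H (vertical) against that at 5D over 4D 8H (horizontal) for the named genes, with equal changes on the dashed line. No library is shared between the axes; the genes were named by the vertical axis. Endodermal barrier genes lie below 0 vertically (-1.31 to -0.93) and between -0.10 and 0.98 horizontally.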

How the data were processed

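Poly(A) RNA of 19 libraries at 7 ages was sequenced by the authors as 100-base single reads, and FPKM per locus was deposited. The methods name Bowtie, the Tuxedo tools and Rsubread, and the submitters' processing notes name TopHat, Cufflinks and build TAIR10, without versions. Counts could not be recovered from the deposited FPKM, since at most 48% of low values came within 0.05 of whole reads, where chance gives 10%.

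Loci averaging 1 FPKM or more were kept. Values were taken as log2(FPKM + 1), which understates changes of low genes, and all 19 libraries were fitted with a mean per age in limma 3.58.1 (R 4.3.3) with a variance trend. P-values were adjusted over 18087 loci (Benjamini-Hochberg, two-sided, threshold 0.05). The fit was tested on simulated data with independent normal noise. It recovered 86% of changes of 1 and 100% of changes of 2 on the log2 scale, and 6.53% of its calls were false. The simulation held no shift of a whole library, so it does not speak to libraries such as 6D replicate 3. Libraries of 1 age were grouped by the labels.

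Named genes were the 10 largest called rises and falls whose libraries did not overlap, with a transcript of at least 300 nucleotides and a mean of at least 5 FPKM in the higher age, the 5 smallest p-values, called members of 30 lists, and TCX2 with its partners and stem cell markers. The members and lists were chosen with earlier results of these data known, so lists carry counts and medians but no test. 1 gene was left out of a list and is not reported here. Names, positions and the 17833 windows of 250 bases come from RefSeq TAIR10.1, which matched 32489 of 33201 loci. Depth was estimated from FPKM steps of loci with 1 transcript over 800 nucleotides, assuming fragments of 200 bases. The alternatives changed the pseudocount, filter, scaling, weights, zeros, variance trend, libraries and replicate block.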

Additional observations from a re-analysis of the deposited data

Results flagged for a closer look

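The change over the 16 h ending at 6D differed from that over the 16 h ending at 5D for 42 named genes (limma contrast, adjusted p under 0.05). Over all 18087 loci 744 passed (4.11%). The values given here are that difference on the log2 scale, 6D minus 5D 8H less 5D minus 4D 8H. The genes were named by their change at 6D against 5D 8H, which enters both quantities, and the 38 loci that pass without 4D 8H replicate 2 show how far the test rests on that library.

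Positive differences were found for the chaperones HSP17.6A (3.56), HSP17.4 (2.67) and AT1G54050 (2.07), for MIOX4 (2.38), for PANS1 (1.15) and CDC20.1 (0.91) of mitosis, and for GH3.1 (1.14), CML38 (1.03) and FIT (0.85).

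Negative differences were found for all 8 barrier genes of the endodermis: ESB1 (-2.29), PER64 (-1.92), SGN3 (-1.76), CASP4 (-1.72), CASP1 (-1.68), CASP5 (-1.68), CASP2 (-1.59) and MYB36 (-0.86). The root hair wall genes PRP3 (-1.96) and EXPA18 (-1.14) and the wall-loosening XTH17 (-1.10) were also among them. DOX1 (-3.34), AT1G51830 (-2.93), AT4G00130 (-2.63), COPT2 (-2.56), AT1G51840 (-2.31), AT2G18150 (-2.27), AT3G56290 (-1.60), AT4G11290 (-1.07), RPT2 (-1.02) and AT5G17760 (-0.81) were named by size or by p.

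The ER genes BIP3 (-1.68) and ERO1 (-0.83), the photosynthesis genes CAB1 (-1.50) and RCA (-1.16), the triterpene genes THAD (-1.38) and THAH (-1.28), the clock genes RVE8 (-1.02) and ELF4 (-0.55), the jasmonate genes JAR1 (-0.79) and AOS (-0.74), and the meristem genes AGL42 (-1.38) and JKD (-0.69) completed the set. AGL42 did not pass at 6D against 5D 8H (0.25) and rose over the earlier span (1.64), where it had 5.10, 4.26 and 5.76 FPKM at 5D, against 0.892 and 0.975 FPKM at 4D 8H.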

How the results depend on the processing

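Of the 120 named genes called at 6D against 5D 8H, 58 kept the call under every one of the 30 alternatives that gave them a value and none changed sign. The calls lost were 54 without 5D 8H replicate 1, 45 without 5D 8H replicate 3, 44 without 6D replicate 3, 19 with the time points of the contrast only and 17 with no filter. The count of 2476 loci became 3763 with library weights, 2958 without the 5D 16H time point, and 1145 to 2967 when libraries were left out in turn. The count over 2-fold ranged from 345 to 648 in those fits. The 744 loci that differed between the spans became 472 with no filter, 1353 with those time points only, 3273 with library weights (1595 positive) and 38 to 1458 with a library left out, where 1458 (774 positive) was without 6D replicate 3. The 252 loci at 5D against 4D 8H became 94 with no filter, 1643 with those time points only, 434 without the 5D 16H time point, 3513 with library weights and 1 to 1005 with a library left out. The cause was not tested.

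Replicate numbers did not pair the samples: deviations of same-numbered libraries of 6D and 5D 8H correlated at -0.10, -0.09 and -0.18. With the replicate number as a block, the counts were 2599 loci, 504 over 2-fold, 991 for the difference between the spans and 166 at 5D against 4D 8H.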

Other observations

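Several gene families, chosen after their values were seen from shared RefSeq product names, were mostly lower at 6D than at 5D 8H. Of 15 dirigent-like genes tested, whose proteins guide the coupling of lignans and lignin, 13 fell (median -1.21), beside 10.1% of all loci called lower. Among 43 genes of the peroxidase superfamily 20 fell (median -0.52), and none rose. Proline-rich extensin-like wall proteins fell at 6 of 10 loci (median -1.02), Dof zinc finger factors at 9 of 13 (median -0.79), leucine-rich repeat kinases at 34 of 80, lipid transfer proteins at 12 of 39 and basic helix-loop-helix factors at 20 of 69, with no rise in any of these families. Members of a family share sequence, so reads may be divided among them.

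Other genes outside the lists, also chosen after their values were seen, rose with the chaperones. MBF1C, a transcriptional coactivator induced by heat, had 220.4, 200.3 and 233 FPKM at 6D, against 52.1, 86.7 and 56.8 FPKM at 5D 8H (1.76 ± 0.31, adjusted p = 0.0021). Hsp70b (2.26 ± 0.42) and Fes1A (2.11 ± 0.35) rose as well. The ABC transporter gene ABCG40 had 197, 165 and 247 FPKM at 6D, against 47.6, 70.4 and 43.3 FPKM at 5D 8H (1.91 ± 0.28, adjusted p = 0.00083). The root hair wall gene PRP1 had 79.5, 57.8 and 52.3 FPKM at 6D, against 266, 131 and 228 FPKM at 5D 8H (-1.67 ± 0.33, adjusted p = 0.0042).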
